A study of Mus musculus with 16 samples.

Results

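The genes described here encode subunits of the 5 complexes of mitochondrial oxidative phosphorylation, with a few genes that share their names. They were chosen by symbol as every gene whose name begins with Nduf, Uqcr, Cox4 to Cox8 or Atp5, with Sdha, Sdhb, Sdhc and Sdhd. Subunits under other names, such as Cyc1 of complex III and Usmg5 of complex V, are left out. This rule found 92 of the 23420 genes listed, 45 for complex I, 4 for complex II, 8 for complex III, 18 for complex IV and 17 for complex V, and it used no measured value. RNA was sequenced from 2 blood progenitor populations sorted from the bone marrow of mice of 40 weeks of age. Multipotent progenitors (MPP, sorted as Lin-cKit+Sca1+CD48+CD150-) can form all blood lineages, and granulocyte-monocyte progenitors (GMP, Lin-cKit+Sca1-CD150-CD16/32+) give rise to myeloid cells. In each population, 4 libraries labelled Tet2KO (genotype Tet2-/-) were compared with 4 labelled WT (genotype Tet2fl/fl, the allele with loxP sites). Each library came from a single mouse, and 3 of the 4 mice of each genotype gave both populations. The labels describe the deficiency as one of the blood-forming cells, and they do not say what deleted the gene. Tet2 encodes an enzyme that oxidizes 5-methylcytosine in DNA.

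The respiratory chain passes electrons from NADH (complex I) and succinate (complex II) through coenzyme Q to complex III, and from there through cytochrome c to oxygen at complex IV. Complexes I, III and IV pump protons across the inner mitochondrial membrane, and complex V, the ATP synthase, uses that gradient to make ATP. Most subunits are encoded in the nucleus, as all the genes here are, and a few by mitochondrial DNA, which are not analysed here. Blood stem cells are known for relying little on this pathway, and progenitors for drawing on it more.

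What the data hold are the authors' fold changes and standard errors (SE) per gene, without values per library, so the spread between mice enters only through the SE. Fold changes are on the log2 scale throughout, with values below 0 where the libraries labelled Tet2KO were the lower. In the authors' deposited tables the Tet2 gene itself had a log2 fold change of 0.44 (SE 0.0992, adjusted p = 0.00551) for MPP and of 0.35 (SE 0.0748, adjusted p = 0.000409) for GMP, above 0 in each. A sum over the whole gene does not show whether the deleted part was transcribed, so it does not check the labels. The GMP marker genes made up 2.21% of all mean normalized counts in the authors' deposited table for GMP and 0.36% in that for MPP. Of these 7 markers, 2 passed in GMP, in opposite directions, the protease gene Ctsg at −0.31 (SE 0.0767, adjusted p = 0.00434) and Csf1r, the receptor of a monocyte growth factor, at 0.56 (SE 0.111, adjusted p = 9.29e-05), per the authors' deposited table. In MPP, 5 of the 7 were marked as outliers, with estimates above 0, from 0.05 (Ctsg) to 0.54 (Mpo, SE 0.325). Kit (0.08) and Fcgr3 (−0.13) were tested there and did not pass. Of the 5 markers of the MPP gate, Flt3 was marked as an outlier in MPP at −0.39 (SE 0.158), and none passed in either population (authors' deposited tables). Lists for B cells, T cells, red cells and mature neutrophils each came to 0.00141% or less, the mast cell and basophil list to 0.0348% in GMP and 0.00607% in MPP, and the list for stroma and endothelium to 0.0118% or less. Of the mast cell and basophil list, Cma1 alone passed the test, lower in GMP (−1.71, adjusted p = 9.45e-05, authors' deposited table). Few of that list could pass. Cpa3, with most of its counts, was marked as an outlier in both populations, Prss34 had a mean under 10 in both, and so had Cma1 in MPP. Mcpt8 was tested in both and did not pass. In the red cell list, Hba-a1 and Hba-a2 were listed at 0 in both tables, so its share rests on the other genes. The share of the stroma and endothelium list rests on Pecam1, with 1104 of 1115 summed counts in MPP and 1274 of 1280 in GMP. Its other 4 genes had means under 10. The part of these cells and of the marker changes in the results below was not tested. In sorted bulk samples, fewer cells of a type and less RNA per cell cannot be told apart.

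In GMP, 8 oxidative phosphorylation genes fell in the libraries labelled Tet2KO, with changes from −12.8% to −19.5%, and none rose. That is 9.52% of those tested, beside 3.96% of all genes. Test statistics in GMP were spread 1.35 times as widely over all genes as the test assumes, and after division by that spread none of the 8 calls was left, while 72 of all 11503 genes (0.626%) still passed. The 8 genes encode the core protein Uqcrc1 of complex III, the complex I subunits Ndufa9, Ndufs1 and Ndufa10, the ATP synthase subunits Atp5b, Atp5f1 and Atp5g3, and Ndufa4. Most of the other genes lay slightly below 0 without passing the test, so that 69 of the 84 tested had a negative fold change, beside 49.9% of all genes, and the median was −0.10 on the log2 scale, or −6.86%. In MPP, 73 of the 83 tested had a negative fold change, with a median of −0.21 or −13.7%, but not one passed the test. The changes were small and of one sign in most genes of each complex, and most were too small beside their SE to reach an unadjusted p of 0.05.

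**Figure D1:**
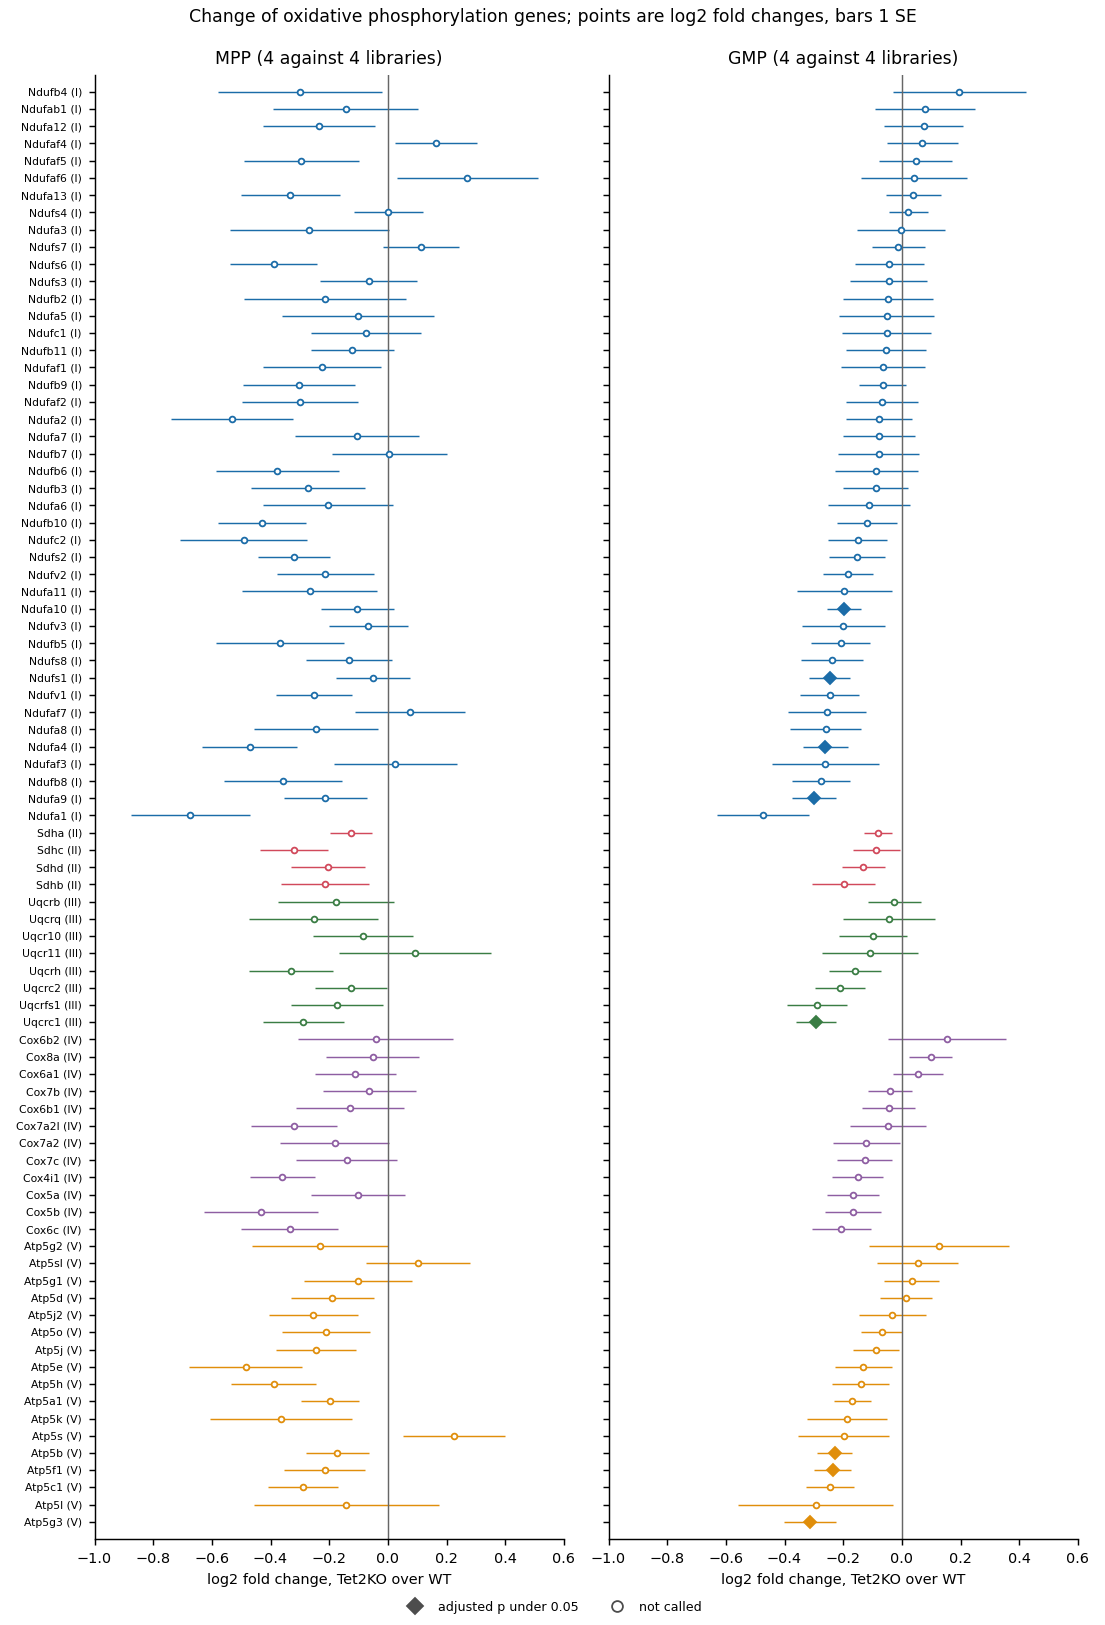
Log2 fold change (libraries labelled Tet2KO over WT, x axis) of each tested oxidative phosphorylation gene (y axis, complex in brackets) in MPP and GMP, ordered within each complex by the GMP value. Points are the authors' estimates from 4 against 4 libraries, bars are 1 SE and filled diamonds mark an adjusted p under 0.05. The 8 diamonds lie in the GMP panel, all to the left of 0.

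In GMP, 8 of 84 tested genes passed an adjusted p of 0.05 (DESeq2, Benjamini-Hochberg over all genes), and all 8 were lower. Over all 11503 genes tested in GMP, 3.96% passed, 2.22% as lower and 1.75% as higher. At an adjusted p under 0.1, 13 passed (beside 6.68% of all genes), and at one under 0.01, 3 did (1.72%, with the genes Uqcrc1, Ndufa9 and Atp5b). At an unadjusted p under 0.05, 20 of the 84 (23.8%) were lower and none was higher, beside 8.68% of all genes that were lower. Over all tested genes the median fold change was 0.00. Abundant genes as a whole lay a little lower, with a median of −0.03 for genes with a mean of at least 1000, of which 6.32% passed. Of these abundant genes, 59.9% lay below 0 and 16.0% were lower at an unadjusted p under 0.05.

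Uqcrc1, a core protein of the cytochrome bc1 complex (complex III), had the smallest p of these genes in GMP. Its fold change in the authors' deposited table was −0.29 (SE 0.0683, adjusted p = 0.00166), or −18.4%, at a mean of 878.9 normalized counts. In the authors' deposited table for MPP the estimate was nearly the same, −0.29, with an SE of 0.137 that left it at an unadjusted p of 0.0357 and an adjusted p of 0.463. The gene lies on the plus strand at chr9:108936633-108949623 (mm10).

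Ndufa9, an accessory subunit of the matrix arm of complex I, fell in GMP by 0.30 (SE 0.0746, adjusted p = 0.00433, authors' deposited table) and stood at −0.21 (SE 0.14) in MPP, where it did not pass. Ndufs1, the core subunit with several of the iron-sulfur clusters that carry electrons along that arm, fell in GMP by 0.25 (SE 0.0701, adjusted p = 0.019, authors' deposited table). Its MPP value in the authors' deposited table was −0.05 (SE 0.126). Ndufa10, an accessory subunit of the membrane arm, fell in GMP by 0.20 (SE 0.0583, adjusted p = 0.0257, authors' deposited table), with −0.10 (SE 0.125) in MPP. The genes lie at chr6:126821721-126849136, chr1:63143596-63176833 and chr1:92439010-92473860 (mm10), all on the minus strand.

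Ndufa4 carries a complex I name but its protein is now assigned to complex IV. It fell in GMP by 0.26 (SE 0.0771, adjusted p = 0.0262, authors' deposited table). In MPP its estimate was lower still, −0.47 (SE 0.162, unadjusted p = 0.0037), and its adjusted p in the authors' deposited table was 0.198. The gene lies on the minus strand at chr6:11900292-11907497 (mm10). Its paralogue Ndufa4l2 was hardly counted, with means of 2.56 in MPP and 2.87 in GMP in the authors' deposited tables.

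Of the ATP synthase, Atp5b, the catalytic beta subunit of the F1 head, had the highest mean of these genes (13400 normalized counts in GMP, authors' deposited table). It fell in GMP by 0.23 (SE 0.0595, adjusted p = 0.00762, authors' deposited table), beside −0.17 (SE 0.107) in MPP. Atp5f1, subunit b of the peripheral stalk that holds the head in place, fell in GMP by 0.24 (SE 0.0632, adjusted p = 0.0109, authors' deposited table), beside −0.22 (SE 0.139) in MPP. Reads of Atp5f1 are less certain than those of the other 7, since 15.4% of the 75-base windows of its transcript also occur at another annotated locus. It also shares windows with Wdr77, which it overlaps, as Ndufs1 does with Ino80dos. Atp5g3 is one of several genes for the c subunit, which forms the rotating ring in the membrane. It fell in GMP by 0.31 (SE 0.0893, adjusted p = 0.0198, authors' deposited table). In the authors' deposited table for MPP it is marked as an outlier and has no p, with an estimate of −0.27 (SE 0.181). The 3 genes lie at chr10:128083273-128090391 (plus strand), chr3:105942698-105960099 (minus) and chr2:73908447-73911326 (minus), all in mm10.

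The 8 genes were among the abundant ones, with GMP means from 675.4 to 13400, and their SE lay between 0.0583 and 0.0893. Of the 84 genes tested in GMP, 25 had an SE no higher than that, while in MPP 1 gene did. All 8 had a negative estimate in MPP too, and 2 of them (Uqcrc1 and Ndufa4) an unadjusted p under 0.05 there. A further 5 genes lay between an adjusted p of 0.05 and 0.1 in GMP, namely Ndufa1, Atp5c1, Ndufb8, Uqcrfs1 and Atp5a1.

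The promoters of all oxidative phosphorylation genes with an entry, whether they fell or not, were read for 4 short motifs of factors known to bind near genes of this pathway. Both strands were read from 250 bases before to 50 after the start (RefSeq, GRCm38.p6). A match is only a description of these letters. The pattern of nuclear respiratory factor NRF1, a pair of GCGC runs with 2 free bases between them, was found for 21 of the 76 genes with an entry (27.6%), beside 7.0% of all 27025 genes with one. CCGGAAG, of the ETS family to which GABP belongs, was in 17 (22.4%, beside 9.93%), and AAGATGGCG, of YY1, was in 8 (10.5%, beside 1.64%). The E-box CACGTG was in 7 (9.2%), close to the 8.09% of all genes. Among the genes that fell, Uqcrc1 had 2 NRF1 matches, Atp5g3 had 1 together with an E-box, Ndufa9 had a YY1 match and Atp5f1 an E-box. The windows of Atp5b, Ndufa10 and Ndufa4 held none of the 4, and Ndufs1 has no entry. No ETS match was found in any gene that fell and has an entry. The sites are written 5′ to 3′ on the gene's strand, with the motif in capitals.
Uqcrc1, NRF1, chr9:108936643-108936672 (plus strand): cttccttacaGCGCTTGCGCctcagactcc
Uqcrc1, NRF1, chr9:108936668-108936697 (plus strand): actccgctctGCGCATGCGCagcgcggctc
Atp5g3, NRF1, chr2:73911295-73911324 (minus strand): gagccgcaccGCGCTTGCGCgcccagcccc
Atp5g3, E-box, chr2:73911547-73911576 (minus strand): acccctgcctggCACGTGcaaggagcgagg
Ndufa9, YY1, chr6:126849096-126849125 (minus strand): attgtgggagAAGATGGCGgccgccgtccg
Atp5f1, E-box, chr3:105959484-105959513 (minus strand): aCACGTGgtgtacctctgcgcaaccgcccc

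In MPP, 0 of 83 tested genes passed an adjusted p of 0.05, where 0.616% of all 11859 tested genes did, 0.27% as lower and 0.346% as higher. At an adjusted p under 0.1, 1 passed (Ndufa1), beside 0.843% of all genes. At an unadjusted p under 0.05, 19 of the 83 (22.9%) were lower and none was higher, beside 4.8% of all genes that were lower. After division by the spread of the statistics over all genes (1.16 in MPP) the count was again 0. The median fold change was −0.21, with the middle of the genes between −0.30 and −0.10, beside a median of 0.00 for all tested genes, of which 50.9% lay below 0. The median SE of 0.17 in MPP was larger than that of 0.10 in GMP, and 81 of the 83 genes tested in both had the smaller SE in GMP.

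In complex I, the lowest value in both populations was that of Ndufa1, a small membrane-arm subunit needed for assembly. It stood at −0.67 (SE 0.202) in MPP and −0.47 (SE 0.156) in GMP, with adjusted p of 0.0995 and 0.0557 in the authors' deposited tables. Of the 36 tested genes with a complex I name and a subunit role, Ndufa4 included, 33 lay below 0 in MPP (median −0.24) and 31 in GMP (median −0.09). The 7 core subunits of the matrix arm, which bind NADH and carry electrons, had medians of −0.13 in MPP and −0.18 in GMP. Ndufv1, the subunit that binds NADH and the flavin, had −0.25 in both of the authors' deposited tables (SE 0.131 in MPP and 0.0992 in GMP). The 18 tested accessory subunits of the membrane arm had a lower median in MPP (−0.29, 17 below 0) than in GMP (−0.09, 16 below 0). The highest complex I subunit in GMP was Ndufb4, at 0.20 (SE 0.227, authors' deposited table), and 35.2% of the windows of its transcript occur at other annotated loci. Ndufs5 was listed at 0 in both tables, and 24.1% of its windows also occur at a pseudogene locus.

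The 7 genes of the Ndufaf series do not encode subunits but factors that help to assemble complex I. In MPP, 3 of the 7 lay below 0 and the median was 0.03. In GMP, 4 lay below 0 and the median was −0.07. The highest values of the complex I names in MPP were those of Ndufaf6 (0.27, SE 0.24) and Ndufaf4 (0.16, SE 0.139, both authors' deposited table), and Ndufaf4 was at 0.07 (SE 0.12) in GMP. Over all 10 tested genes without a subunit role, which add the supercomplex factor Cox7a2l, Atp5s and Atp5sl, 4 lay below 0 in MPP (median 0.05) and 6 in GMP (median −0.06). The genes for subunits lay below 0 in 69 of 73 in MPP (median −0.21) and 63 of 74 in GMP (median −0.12).

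**Figure D2:**
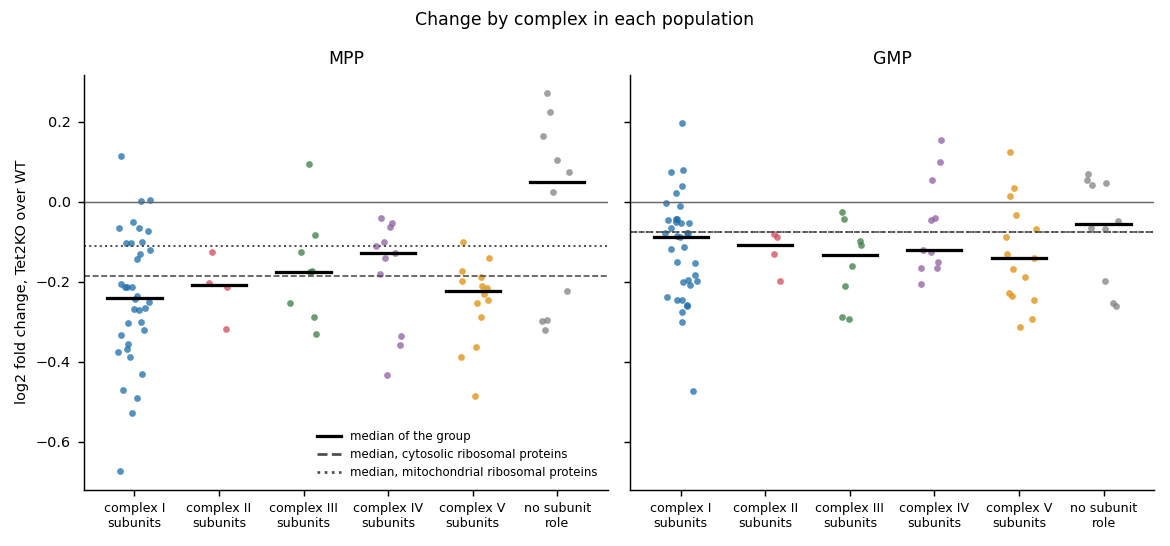
Log2 fold change (libraries labelled Tet2KO over WT, y axis) of each tested gene, grouped by complex, with the genes that encode no subunit apart and Ndufa4 under its complex I name, in MPP and GMP. Solid bars are group medians; dashed and dotted lines are the medians of the cytosolic and mitochondrial ribosomal protein genes. The median of every complex lies below 0 in both panels, and that of the genes without a subunit role is 0.05 in MPP and −0.06 in GMP.

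Complex II, succinate dehydrogenase, has 4 subunits, and all 4 lay below 0 in both populations without passing the test. The membrane anchor Sdhc had the lowest MPP value, −0.32 (SE 0.117, unadjusted p = 0.00625, adjusted p = 0.251, authors' deposited table), and −0.09 (SE 0.0804) in GMP. The other anchor, Sdhd, had −0.20 (SE 0.127) and −0.13 (SE 0.0735) in the authors' deposited tables. Sdha, the flavoprotein that oxidizes succinate and the most precisely measured member in both tables, stood at −0.13 (SE 0.0703) in MPP and −0.08 (SE 0.0487) in GMP. Sdhb, the iron-sulfur subunit, had −0.21 (SE 0.151) and −0.20 (SE 0.107) in the authors' deposited tables.

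In complex III, 7 of 8 genes lay below 0 in MPP (median −0.18) and 8 of 8 in GMP (median −0.13). Beside Uqcrc1, the lowest GMP value was that of Uqcrfs1, the Rieske iron-sulfur protein, at −0.29 (SE 0.104, adjusted p = 0.0885, authors' deposited table), with −0.17 (SE 0.157) in MPP. Uqcrh, the hinge protein, was the lowest in MPP relative to its error, at −0.33 (SE 0.142, unadjusted p = 0.0202, authors' deposited table). The highest values were small, Uqcr10 at −0.08 (SE 0.17) and Uqcr11 at 0.09 (SE 0.259) in MPP, and Uqcrb at −0.03 (SE 0.0904) and Uqcrq at −0.04 (SE 0.158) in GMP, all in the authors' deposited tables.

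Of the genes with a Cox name, for complex IV or cytochrome c oxidase, none passed in either population. Ndufa4, which fell in GMP, is counted under its complex I name and not here. All 12 tested genes with a Cox name lay below 0 in MPP (median −0.13) and 9 of 12 in GMP (median −0.08, or −0.04 with the genes of low mean included). Cox4i1, the widely expressed form of subunit IV, had the smallest p in MPP after Ndufa1, at −0.36 (SE 0.111, adjusted p = 0.116, authors' deposited table), and −0.15 (SE 0.0868) in GMP. Cox5b followed in MPP at −0.43 (SE 0.194, authors' deposited table). The lowest in GMP relative to their errors were Cox6c at −0.21 (SE 0.101, adjusted p = 0.273) and Cox5a at −0.17 (SE 0.088), in the authors' deposited table. In that for MPP, Cox5a stood at −0.10 (SE 0.16). Cox8a and Cox6b2 were the highest in both, at −0.05 (SE 0.159) and −0.04 (SE 0.264) in MPP and at 0.10 (SE 0.0742) and 0.15 (SE 0.2) in GMP, in the authors' deposited tables.

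Several complex IV subunits have a tissue-restricted form known from muscle, lung or testis, and these were hardly counted. In the authors' deposited tables, mean normalized counts in MPP and GMP were 7.95 and 8.48 for Cox4i2, 9.46 and 5.18 for Cox6a2, 7.91 and 3.74 for Cox7a1, and 1.37 and 0.706 for Cox8b. Cox7b2 was listed at 0 in both and Cox8c at 0.132 and 0. None of these 6 reached the mean of 10 below which the authors gave no adjusted p. Their partners were well counted, with GMP means of 855.1 for Cox4i1, 752.0 for Cox6a1, 288.7 for Cox7a2 and 822.3 for Cox8a in the authors' deposited table. Cox6b2 was the exception among the restricted forms, with means of 103.0 in MPP and 126.0 in GMP, beside 254.1 and 406.2 for Cox6b1 (authors' deposited tables). The partners' fold changes were small, Cox6a1 at −0.11 (SE 0.137) in MPP and 0.05 (SE 0.0843) in GMP, Cox6b1 at −0.13 (SE 0.185) and −0.05 (SE 0.0904), and Cox7a2 at −0.18 (SE 0.186) and −0.12 (SE 0.115), all in the authors' deposited tables. Cox7a2l, the factor that joins complexes III and IV, had −0.32 (SE 0.148) in MPP and −0.05 (SE 0.13) in GMP (authors' deposited tables).

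Of the ATP synthase subunits with an Atp5 name, 14 of 14 tested lay below 0 in MPP (median −0.22) and 12 of 15 in GMP (median −0.14). In the F1 part, which makes ATP, 5 of 5 lay below 0 in MPP (median −0.20) and 4 of 5 in GMP (median −0.17). Atp5a1, the alpha subunit, had −0.20 in MPP (SE 0.0976) and −0.17 in GMP (SE 0.0622, adjusted p = 0.0995), per the authors' deposited tables. Atp5e, the epsilon subunit of the central stalk, and Atp5h, subunit d of the peripheral stalk, had the lowest MPP values, −0.49 (SE 0.193) and −0.39 (SE 0.144, unadjusted p = 0.00699), as the authors' deposited table gives them. All 4 peripheral stalk genes lay below 0 in both populations, with medians of −0.23 in MPP and −0.11 in GMP.

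The 3 genes Atp5g1, Atp5g2 and Atp5g3 encode the same mature c subunit and differ in the sequence that directs it to mitochondria. In GMP, Atp5g3 fell, while Atp5g1 stood at 0.03 (SE 0.0935) and Atp5g2 at 0.13 (SE 0.239) in the authors' deposited table. Atp5g3 had a GMP mean of 1195 normalized counts, beside 623.6 for Atp5g1 and 51.5 for Atp5g2 (authors' deposited table). Of the windows of the Atp5g2 transcript, 86.9% also occur in annotated transcripts of other loci, so its value is uncertain. In MPP, Atp5g1 had −0.10 (SE 0.185) and Atp5g2 −0.23 (SE 0.232) in the authors' deposited table. The difference between these genes was not tested. In MPP, the highest values of the complex V names belonged to genes without a subunit role, Atp5s (0.22, SE 0.174) and Atp5sl (0.10, SE 0.177, authors' deposited table). In GMP, where Atp5g2 was highest, Atp5sl stood at 0.05 (SE 0.137) and Atp5s at −0.20 (SE 0.155, authors' deposited table).

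Of the 83 genes tested in both populations, 62 (74.7%) lay below 0 in both, beside 32.2% of all genes tested in both. A further 11 lay below 0 in MPP alone, 6 in GMP alone, and 4 lay above 0 in both. The populations share mice, so these values do not come from separate animals. The estimate was the more negative in MPP for 60 of 83 (72.3%, beside 51.5% of all genes), and the median difference (GMP minus MPP) was 0.08 with a median SE of 0.205. No gene passed the test of the difference (normal test of the difference over its SE, adjusted over 11050 genes, of which 0.0633% passed), and 0 of 83 had an unadjusted p under 0.05, beside 4.6% of all genes. Differences of the size of 1 median SE were thus not detectable at this precision. With errors correlated to the 0.402 by which the statistics of both tables correlate across genes, 84 of all genes passed, against 7 before, and none of the 83 did (smallest adjusted p 0.314). That correlation also holds changes common to both populations.

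The highest differences relative to their errors were those of Ndufa13 (0.37, SE 0.192), Ndufa2 (0.45, SE 0.237) and Ndufs6 (0.35, SE 0.189), all complex I subunits that were lower in MPP. The estimates of Ndufa13 in the authors' deposited tables were −0.33 in MPP and 0.04 in GMP. Those of Ndufa2 were −0.53 and −0.08, and those of Ndufs6 −0.39 and −0.04, again from the authors' deposited tables. The lowest differences were those of Atp5s (−0.42, SE 0.233), the assembly factor Ndufaf7 (−0.33, SE 0.23) and Ndufs1 (−0.20, SE 0.144). By complex, the median difference was 0.08 for complex I (31 of 43 the more negative in MPP), 0.06 for II (4 of 4), −0.01 for III (3 of 8), 0.14 for IV (11 of 12) and 0.14 for V (11 of 16).

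**Figure D3:**
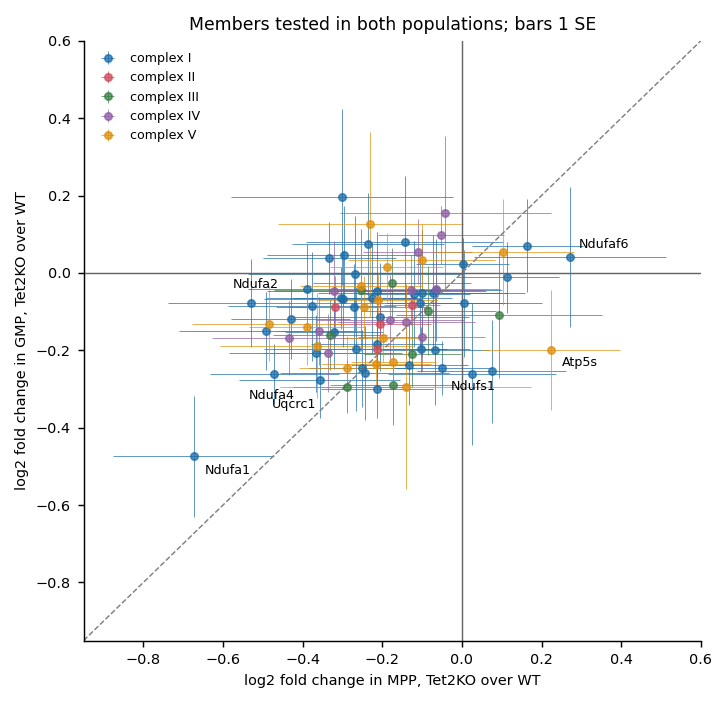
Log2 fold change (libraries labelled Tet2KO over WT) in MPP (x axis) and GMP (y axis) of the 83 genes tested in both, coloured by complex, with bars of 1 SE and the line of equal change dashed. Of the points, 62 lie below 0 on both axes and 60 lie above the dashed line, and the bars of most reach it.

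Fold changes below 0 were common in other gene families too. Of the tested genes for cytosolic ribosomal proteins, 69 of 72 lay below 0 in MPP (median −0.19, 1 passed) and 54 of 73 in GMP (median −0.08, 4 passed). Of 76 genes for mitochondrial ribosomal proteins, 63 lay below 0 in MPP (median −0.11, none passed) and 52 in GMP (median −0.08), where Mrpl18 alone passed (−0.25, authors' deposited table). The cytosolic ones that passed were Rps14 in MPP (−0.65) and Rpl10, Rpl19, Rpl6 and Rps27a in GMP (−0.18 to −0.28), all lower in the authors' deposited tables. Transcript length moved with the fold change over all genes. Genes with transcripts under 1000 bases had a median of −0.11 in MPP and −0.03 in GMP, while the longer ones were at 0.00 in both. The oxidative phosphorylation genes are short, with a median of 908 bases beside 2854 for all genes. The short ones among them had medians of −0.25 in MPP (43 of 46 below 0) and −0.09 in GMP (42 of 47), and those of 1000 bases or more −0.19 (30 of 37) and −0.15 (27 of 37). In each population and length class their median lay below that of all genes of that class, but the classes are broad. The rank correlation of fold change with length in MPP was 0.19 over all genes and 0.29 over the oxidative phosphorylation genes. In GMP it was 0.12 and −0.05. The rank correlation of fold change with the mean normalized count was −0.05 and −0.06 in MPP, and −0.21 and −0.29 in GMP. The part of length or of the mean count in the fold changes was not tested.

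Among the partners of the pathway, the enzymes of the tricarboxylic acid cycle, which supply NADH and succinate, lay below 0 in 13 of 13 in MPP (median −0.11, none passed) and in 11 of 13 in GMP (median −0.10). Sucla2, a subunit of succinyl-CoA ligase, passed in GMP (−0.38, SE 0.0885, adjusted p = 0.00146, authors' deposited table) and stood at −0.05 in MPP. The smallest MPP p of the list was that of Dld, shared by several dehydrogenase complexes, at −0.19 (SE 0.105, authors' deposited table). Of 6 tested genes for the ATP synthase inhibitor, coupled carriers and associated proteins, 2 fell in GMP and 4 lay below 0 (median −0.08). In the authors' deposited table these were Slc25a3, the phosphate carrier (−0.31, SE 0.0713, adjusted p = 0.00178), and Slc25a5, an exchanger of ADP for ATP (−0.33, SE 0.0904, adjusted p = 0.0148). In that table the other ADP/ATP carrier, Slc25a4, stood at 0.03 (SE 0.091), the inhibitor Atpif1 at −0.09 (SE 0.0939) and Ucp2 at −0.07 (SE 0.0745). Usmg5, a small ATP synthase subunit without an Atp5 name, stood at 0.06 (SE 0.126) there and at −0.34 (SE 0.226) in MPP. In MPP, Slc25a3 stood at −0.30 without passing, and Slc25a4 and Slc25a5 were marked as outliers (authors' deposited table).

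Of 31 tested factors for complexes II to V, 18 lay below 0 in MPP (median −0.03) and 15 in GMP (median 0.00), and none passed. The smallest p belonged to Ttc19 in MPP (0.36, SE 0.131, a factor for complex III) and to Uqcc in GMP (−0.24), in the authors' deposited tables. The 6 other complex I factors had medians of 0.02 in MPP and −0.02 in GMP. For cytochrome c, cytochrome c1 and coenzyme Q synthesis, 11 of 15 lay below 0 in MPP (median −0.07) and 10 of 15 in GMP (median −0.05), none passing. The smallest p there belonged to Adck4 in MPP (0.59, SE 0.214) and Coq10a in GMP (0.60, SE 0.2, adjusted p = 0.0595), both above 0 in the authors' deposited tables. Regulators of mitochondrial biogenesis lay near 0 as well, with medians of −0.03 in MPP (9 of 16 below 0) and −0.05 in GMP (10 of 15). None passed, and the smallest p belonged to Ppargc1a in MPP (−0.52) and Polrmt, the mitochondrial RNA polymerase, in GMP (−0.29, authors' deposited tables). Import genes lay lower, with 15 of 18 below 0 in MPP (median −0.18) and 16 of 18 in GMP (median −0.08). None passed, and the smallest p belonged to Tomm22 in MPP (−0.33) and Timm23 in GMP (−0.34, adjusted p = 0.133, authors' deposited tables). None of these differences between lists was tested.

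As to their levels, the 92 genes together made up 0.482% of all mean normalized counts in MPP and 0.588% in GMP, in tables that were normalized separately. Per kilobase of transcript, the median over the genes was lowest for complex I (237.6 in MPP, 308.8 in GMP) and highest for complex IV (645.9 and 899.8). In between lay complex III (356.0 and 574.8), complex II (468.8 and 650.8) and complex V (596.3 and 741.3), in the same order in both tables. Atp5b was the highest of all at 4271 per kilobase in MPP and 6993 in GMP, and Ndufa4, at 2153 and 2528, was far above the other genes with complex I names. Of the genes with a mean of at least 10, Ndufab1, the acyl carrier protein, was lowest in both (27.5 and 30.5 per kilobase). Next came Ndufb4 (29.5) and Ndufb2 (30.4) in MPP, and Ndufb2 (42.6) and Ndufb4 (49.8) in GMP. The lengths used were 2447 bases for Ndufab1 and 2413 for Ndufb2, so their levels per kilobase depend on the transcripts chosen. The lowest of complex V was Atp5l (42.9 and 61.4). For Atp5l, 63.4% of its windows also occur at other loci, 9 of them pseudogenes, so its level is uncertain. No replicate spread is known for these levels.

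**Figure D4:**
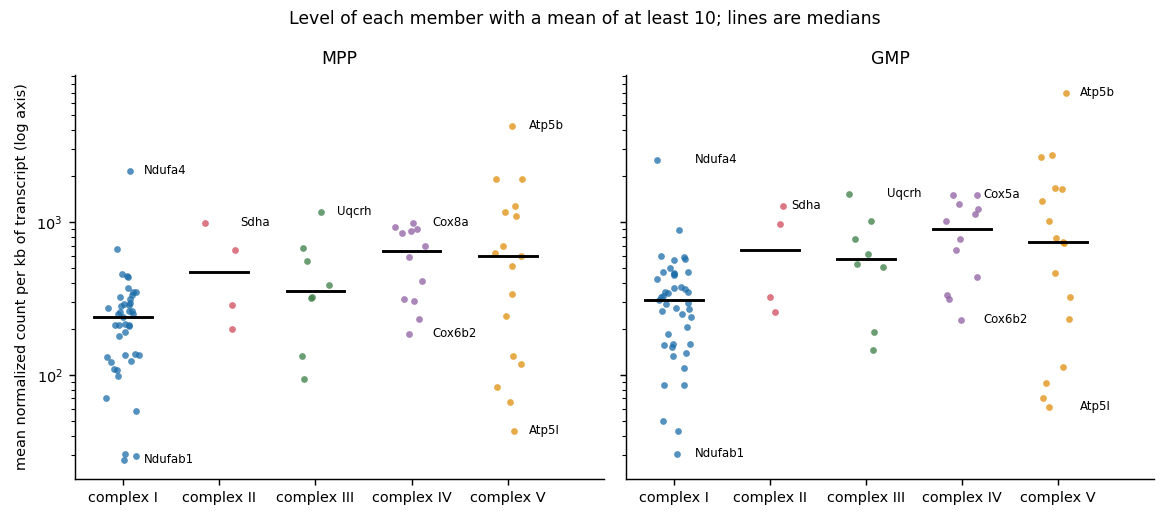
Mean normalized count per kilobase of transcript (y axis, log scale) of each gene with a mean of at least 10, by complex, in MPP and GMP, with bars at the medians. Atp5b is highest in both (4271 and 6993), and the median of complex I lies lowest in both panels (237.6 and 308.8).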

How the data were processed

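RNA of 16 libraries (2 populations, 2 genotypes, 4 mice each) was amplified from 2 ng and sequenced as single 75-base reads, per the labels' protocols; STAR, the mm10 build and DESeq2 are named in the submitters' processing notes, without versions. No source used here gives the counter, its annotation or whether fold changes were shrunk. Per population, the authors deposited 1 DESeq2 table with the mean normalized count over its libraries (a signal), the log2 fold change (Tet2KO over WT) with its SE, and the Wald p-value with its Benjamini-Hochberg adjusted p. Genes with a mean under 10 and genes marked as outliers have no adjusted p. Means are normalized within each table, total counts per library are unknown, and no interval for depth could be given. The deposited SE of genes with few counts does not grow as counts fall, so their fold changes may understate the change.

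From these values, medians, counts and the test of GMP minus MPP were computed (Python 3.11.15, pandas 2.3.3, scipy 1.17.1), the latter tested on simulated data. The simulation drew both populations independently with the deposited SE. It did not cover the shared mice or the wider spread of the statistics. Benjamini-Hochberg values recomputed from the deposited p-values differed from the deposited ones by 2.4e-05 at most. In each table, 27 rows had gene names turned into dates and were not named. Coordinates, transcript lengths (the median over principal coding transcripts) and the share of 75-base windows found at another locus come from mm10 with GENCODE M21, in which all 92 genes were found, 1 of them through a synonym. The windows were those of a single transcript per gene, compared with the annotated transcripts of other genes. Copies in the genome without annotation were not searched. Levels were to be given per amino acid, but are given per kilobase of transcript because no protein table was used here. Promoter sequences come from a set built on RefSeq (GRCm38.p6). The set used here held an entry for 76 of the 92, which says nothing of whether RefSeq holds the others.

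The genes and lists were chosen with earlier results of these data known. Named in the text are, per population and complex, every gene that passed, the 2 highest and 2 lowest by fold change over SE, outliers and low genes, the 3 highest and 3 lowest differences between populations, isoform pairs and fixed core subunits. From each list, those that passed or the one with the smallest p are named. Cyc1 and Usmg5 are named as subunits outside the symbol rule. Alternatives were other thresholds on the adjusted p, a minimum mean of 50, the observed spread of the statistics, recentring and the leaving out of genes without a subunit role or with shared windows.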

Additional observations from a re-analysis of the deposited data

How the results depend on the processing

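In GMP 8 genes passed, 13 at an adjusted p under 0.1 (beside 6.68% of all genes) and 3 at one under 0.01 (1.72%). With each statistic divided by the robust spread of all statistics 0 passed (0.626% of all genes); the cause of that spread was not tested. In MPP 0 passed, and 1 (Ndufa1) at an adjusted p under 0.1 (0.843%). Recentring, a minimum mean of 50 and leaving out genes without a subunit role kept the counts at 8 and 0. The medians by population and complex stayed below 0 in all alternatives run. With the genes of low mean and outliers included, that of complex IV in GMP was −0.04. Chosen after seeing the data, leaving out genes whose transcripts share 75-base windows with another locus gave 7 in GMP (median −0.12) and 0 in MPP (median −0.20). The count of genes differing between populations was 0 in the 3 alternatives run. No paired analysis was possible because the deposited tables hold no values per library, and no library could be left out in turn for the same reason. Precision was lowest in MPP, where the median SE of 0.17 was near the median change of −0.21; depth per library is unknown, and its part in the SE was not tested.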
